A study of Mus musculus with 2 samples.

Results

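Rod photoreceptors that the authors placed in clusters 2 and 3 were examined in single-cell RNA sequencing data from whole mouse retina. The members were the cells with the deposited cell type name Rod and the deposited cluster number 2 or 3, which gave 6620 cells of 30943 in all and of 19359 rods. Cluster 2 held 3813 of them and cluster 3 held 2807, and the other 12739 rods lay in clusters 0 and 1. A Ptbp1-Ctrl library came from 1 mouse of genotype Chx10Cre and a Ptbp1-KO library from 1 of genotype Chx10-Cre;Ptbp1lox/lox, both at 30 days of age, so both carried the Cre transgene. In this line a Cre-GFP fusion under Chx10 control is active in retinal progenitors, and the floxed Ptbp1 allele is thus recombined before rods are born. The retinas were dissociated with papain and captured with 10x Genomics 3' chemistry. The study asked whether loss of the splicing repressor Ptbp1 in progenitors changes the mature retina. With 1 library per genotype there is no replicate, so no test was made, and genotype, animal, dissociation and library cannot be told apart. All intervals are 95% and cover counting error only. Cells sharing a library are not replicates.

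Rods are the photoreceptors for dim light. Their outer segment, a modified cilium, is stacked with membrane discs where light is caught. Light switches on transducin, which activates a cGMP phosphodiesterase, and the fall in cGMP closes cation channels in the plasma membrane. Kinases, arrestin, GTPase accelerators and calcium sensors then turn the response off. The transcription factors Crx and Otx2 drive photoreceptor genes in general, and Nrl with its target Nr2e3 sets the rod program over the cone one. Rods are also known for heavy glycolysis and for mitochondria packed below the outer segment.

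Since genes of the light response and the retinoid carrier gene Rbp3 were among those at higher levels in cluster 3 than in cluster 2, 4 of their promoters are shown. Each window runs 5′ to 3′ on the gene's strand, from 250 bases before the start to 50 after it, in RefSeq sequence of build GRCm38.p6. Capitals mark the letters TAATCC, or GGATTA on the other strand, the core bound by Crx and Otx2, and TGCTGA, or TCAGCA, a core of the element bound by Nrl. The Rbp3 window lies at chr14:33953753-33954052 on the plus strand. Gngt1, for the rod transducin gamma subunit, has its window at chr6:3993758-3994057 on the plus strand. Those of the channel subunit genes Cnga1 and Cngb1 lie at chr5:72642703-72643002 and chr8:95306536-95306835, both on the minus strand.
Rbp3: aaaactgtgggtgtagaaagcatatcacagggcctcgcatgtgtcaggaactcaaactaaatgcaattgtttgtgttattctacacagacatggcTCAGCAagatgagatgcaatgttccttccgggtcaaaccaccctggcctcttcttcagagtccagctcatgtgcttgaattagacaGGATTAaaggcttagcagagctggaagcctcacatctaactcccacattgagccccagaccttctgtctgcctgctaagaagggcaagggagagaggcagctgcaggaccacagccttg
Gngt1: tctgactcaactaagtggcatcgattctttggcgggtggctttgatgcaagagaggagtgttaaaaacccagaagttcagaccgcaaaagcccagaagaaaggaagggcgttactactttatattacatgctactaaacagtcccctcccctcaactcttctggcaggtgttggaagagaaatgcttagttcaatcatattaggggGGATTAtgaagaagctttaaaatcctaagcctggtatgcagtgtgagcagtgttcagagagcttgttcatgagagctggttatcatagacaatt
Cnga1: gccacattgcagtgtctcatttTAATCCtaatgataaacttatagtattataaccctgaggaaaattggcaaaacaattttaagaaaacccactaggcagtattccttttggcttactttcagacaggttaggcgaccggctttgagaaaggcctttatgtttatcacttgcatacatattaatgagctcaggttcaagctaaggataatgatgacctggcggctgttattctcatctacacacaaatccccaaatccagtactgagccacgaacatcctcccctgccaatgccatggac
Cngb1: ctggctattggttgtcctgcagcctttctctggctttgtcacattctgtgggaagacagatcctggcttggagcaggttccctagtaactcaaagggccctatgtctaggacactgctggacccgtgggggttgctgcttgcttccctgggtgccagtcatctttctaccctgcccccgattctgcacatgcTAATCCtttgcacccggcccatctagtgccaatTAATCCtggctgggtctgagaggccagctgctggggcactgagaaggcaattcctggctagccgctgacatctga
All 4 windows shown hold the Crx and Otx2 core, while the windows of Gnb1, Pde6b and Slc24a1 do not. This core was found in 3 of 6 matched promoters of the phototransduction list and in 5 of 8 of the shutoff list. It was in 1 of 10 outer segment, 5 of 18 transcription factor, 6 of 16 rod synapse and 4 of 28 glycolysis promoters. It occurred in 4 of 74 promoters of cytosolic ribosomal protein genes and in 7.06% of all 32851 promoters in the RefSeq table. The Nrl core was in 1 of 6 phototransduction, 3 of 8 shutoff and 8 of 74 ribosomal promoters, beside 19.5% of all promoters. It was in 0 of 10 outer segment, 6 of 18 transcription factor, 2 of 16 rod synapse and 2 of 28 glycolysis promoters. The motifs do not overlap each other in these 4 windows, and a match of letters is a description only.

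The label was checked on the 5 rod markers Nrl, Nr2e3, Gnat1, Pde6b and Cnga1. Levels are given as CPM, the UMIs (unique molecular identifiers) of a gene per 1000000 UMIs summed over the cells of a group, and ratios as log2 of one CPM over another. Over both clusters each of the 5 markers was at least 2-fold above the level in all non-rods of the same library, with median log2 ratios of 2.93 in Ptbp1-Ctrl and 3.15 in Ptbp1-KO, where 11.7% of 4119 tested genes were that far above in Ptbp1-Ctrl and 12.5% of 4216 in Ptbp1-KO. Genes are called tested where the 2 sides of a comparison held 50 or more UMIs and a mean CPM of 50 or more, although no statistical test was made. Nrl stood at 1490 CPM in cluster 2 and 2989 in cluster 3 of Ptbp1-Ctrl and at 1349 and 2777 in Ptbp1-KO, against 253 and 199 in non-rods. Gnat1, the rod transducin alpha subunit, stood at 5472, 11270, 6459 and 13558 CPM in the same order, against 926 and 947. These genes were also used to name the cells, so their presence is a check and not a finding. With every cell thinned to 1000 UMIs, a Gnat1 UMI was seen in 98.7% and 98.9% of cluster 2 cells of Ptbp1-Ctrl and Ptbp1-KO. The share was 42.7% and 41.0% in Müller glia, which should lack the gene. It was taken as a background level, and its source, such as free RNA, was not tested.

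Markers of other retinal cells were low in both clusters. The 9 cone markers summed to 274 and 290 CPM in cluster 2 of Ptbp1-Ctrl and Ptbp1-KO and to 208 and 199.97 in cluster 3, against 36645 in the cones of Ptbp1-Ctrl. The 9 bipolar markers summed to 883, 888, 433 and 402 CPM in that order, and 698, 680, 285 and 250 of these came from Prkca, a protein kinase of rod bipolar cells. The 7 Müller glia markers summed to between 168 and 193 CPM, and the 6 amacrine markers to between 30.8 and 51.5. Among members, 28.6% in Ptbp1-Ctrl and 45.4% in Ptbp1-KO held 3 or more UMIs of other types' markers, and 10.6% and 21.1% did with Prkca left out. The deeper library thus had more such cells, and their part in the results was tried only by leaving them out. The number of cell barcodes found in both libraries was 63, and 28 member cells carried one.

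Depth differed by library. Cluster 2 cells held a median of 1398 UMIs in Ptbp1-Ctrl but 2014 in Ptbp1-KO, and cluster 3 cells 1431 and 1993. Both clusters were deeper than cluster 0, with medians of 936 and 1064, and shallower than the non-rods, with 2875 and 3855. The members' UMIs summed to 6473466 for Ptbp1-Ctrl and to 6283341 for Ptbp1-KO. When every cell was thinned to 1000 UMIs, cluster 2 had medians of 723 and 726 genes per cell and cluster 3 had 654 and 656.5, while unthinned medians were 944 and 1266 in cluster 2 and 872 and 1131 in cluster 3. Thus at equal depth cluster 3 cells held fewer genes in both libraries. That thinning left out 493 members of Ptbp1-Ctrl and 65 of Ptbp1-KO. The study's methods describe female mice, while Xist had 0 UMIs in the members of both libraries and the Y gene Eif2s3y had 188 and 195 CPM in cluster 2.

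The split by library differed between the clusters. Cluster 2 held 2084 Ptbp1-Ctrl cells and 1729 Ptbp1-KO cells, so that 45.3% (43.8 to 46.9) came from Ptbp1-KO. Cluster 3 held 1835 and 972, and 34.6% (32.9 to 36.4) came from Ptbp1-KO. For comparison, Ptbp1-KO gave 46.9% of all cells, 54.2% of cluster 0 and 42.7% of cluster 1. As a share of a library's rods, cluster 2 was 20.7% (19.9 to 21.5) in Ptbp1-Ctrl and 18.6% (17.8 to 19.4) in Ptbp1-KO. Cluster 3 was 18.2% (17.5 to 19.0) and 10.5% (9.84 to 11.1). Both clusters therefore took a smaller share of Ptbp1-KO rods, beyond counting error, and the gap was wider for cluster 3. Cluster 1 was also smaller in Ptbp1-KO, at 15.2% and 12.2%, while cluster 0 was larger, at 45.9% and 58.7%.

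**Figure D1:**
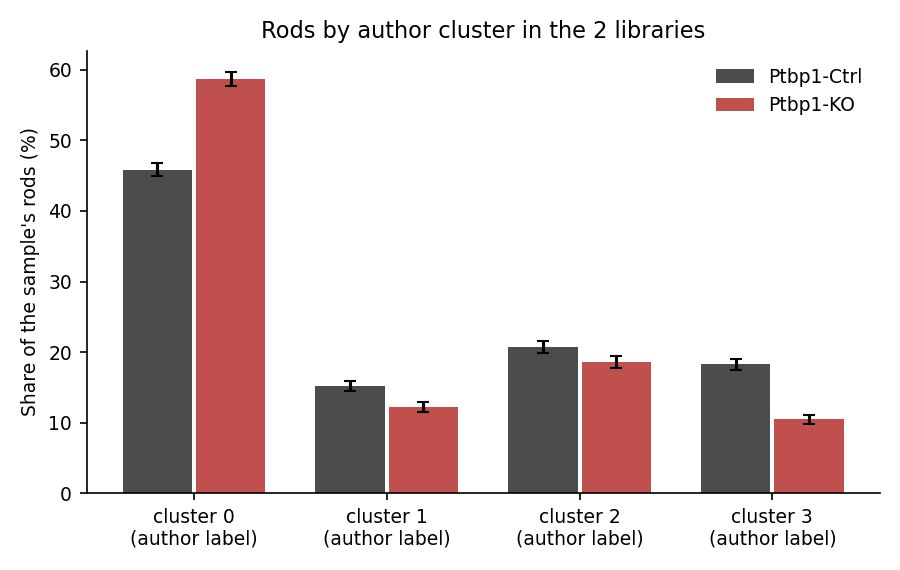
Share of each library's rods (percent) in each author cluster, with 95% binomial intervals that cover counting error only. Cluster 3 held 18.2% of Ptbp1-Ctrl rods and 10.5% of Ptbp1-KO rods, and cluster 2 held 20.7% and 18.6%.

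Cluster 3 also had the smaller Ptbp1-KO share when only cells of 1000 to 2000 UMIs were used, a range that narrows the depth gap without removing it. There Ptbp1-KO gave 36.6% of cluster 2 (34.6 to 38.7), 28.9% of cluster 3 (26.7 to 31.1), 58.9% of cluster 0 and 45.9% of cluster 1 (42.6 to 49.2), against 44.7% of all cells. Cluster 1 thus lay below cluster 2 over all cells but above it in this range. Both libraries were clustered together, and some genes that separate the clusters, such as Malat1, also differed between libraries. These shares therefore describe the deposited clustering and are not counts of a cell type defined apart from it.

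Ptbp1, on chromosome 10 from 79854427 to 79864771 of mm10 (plus strand), checked the genotype labels. In cluster 2 it had 61 UMIs in Ptbp1-Ctrl, 18.7 CPM (14.3 to 24.0), and 3 UMIs in Ptbp1-KO, 0.789 CPM (0.163 to 2.31), a log2 ratio of −4.57 (−6.89 to −2.95). In cluster 3 it had 56 UMIs, 17.4 CPM (13.2 to 22.6), and 1 UMI, 0.403 CPM (0.0102 to 2.25), a log2 ratio of −5.43 (−10.76 to −2.90). Clusters 0 and 1 gave 138 UMIs and 0. At 1000 UMIs per cell a Ptbp1 UMI was seen in 27 of 1764 cluster 2 cells (1.53%) and 28 of 1662 cluster 3 cells (1.68%) of Ptbp1-Ctrl. Müller glia, which are known to express Ptbp1, had one in 3.91% at that depth. In Ptbp1-KO a Ptbp1 UMI was seen without thinning in 2 of 1729 cluster 2 cells (0.116%) and 1 of 972 cluster 3 cells. After thinning it was in 0 of 1668 and 1 of 968, and 3 counts of 1668 would be 0.180%. Ptbp2, the neuronal paralog of Ptbp1, stood at 161 and 170 CPM in cluster 2 and at 94.6 and 92.3 in cluster 3 of the 2 libraries.

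Cluster 3 against cluster 2 was described next. The authors made the clusters from these same genes and cells, so every value in this comparison is a description of what separates them. The question put here is which rod functions differ in level and whether the pattern was alike in both libraries. Cell by cell, the clusters separated most clearly on the nuclear RNA Malat1, on phototransduction transcripts and on mitochondrial transcripts. Malat1 took a median of 2.55% of a cell's UMIs in cluster 2 and 0.383% in cluster 3 of Ptbp1-Ctrl, and 2.85% and 0.240% in Ptbp1-KO. Of cluster 2 cells, 99.2% in Ptbp1-Ctrl and 99.1% in Ptbp1-KO lay above the cluster 3 median.

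The 10 phototransduction genes took medians of 5.08% in cluster 2 and 9.90% in cluster 3 of Ptbp1-Ctrl, and 5.23% and 10.5% in Ptbp1-KO. The 13 mitochondrial genes took 2.19% and 5.12%, and 2.11% and 4.60%. Ribosomal protein transcripts took 3.69% and 7.43%, and 3.76% and 7.04%. The 4 measures overlapped little between the clusters: 96.02% and 96.1% of cluster 3 cells lay above the cluster 2 median of the phototransduction share, and 98.6% and 97.1% above that of the mitochondrial share. Cluster 0 lay on the far side of cluster 2, with Malat1 medians of 3.37% and 3.85% and phototransduction medians of 2.68% and 2.43%. For the mitochondrial share, cluster 0 was low at 0.662% and 0.801%, but cluster 1 was close to cluster 3 at 4.20% and 4.65%. The authors regressed mitochondrial content out before clustering.

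**Figure D2:**
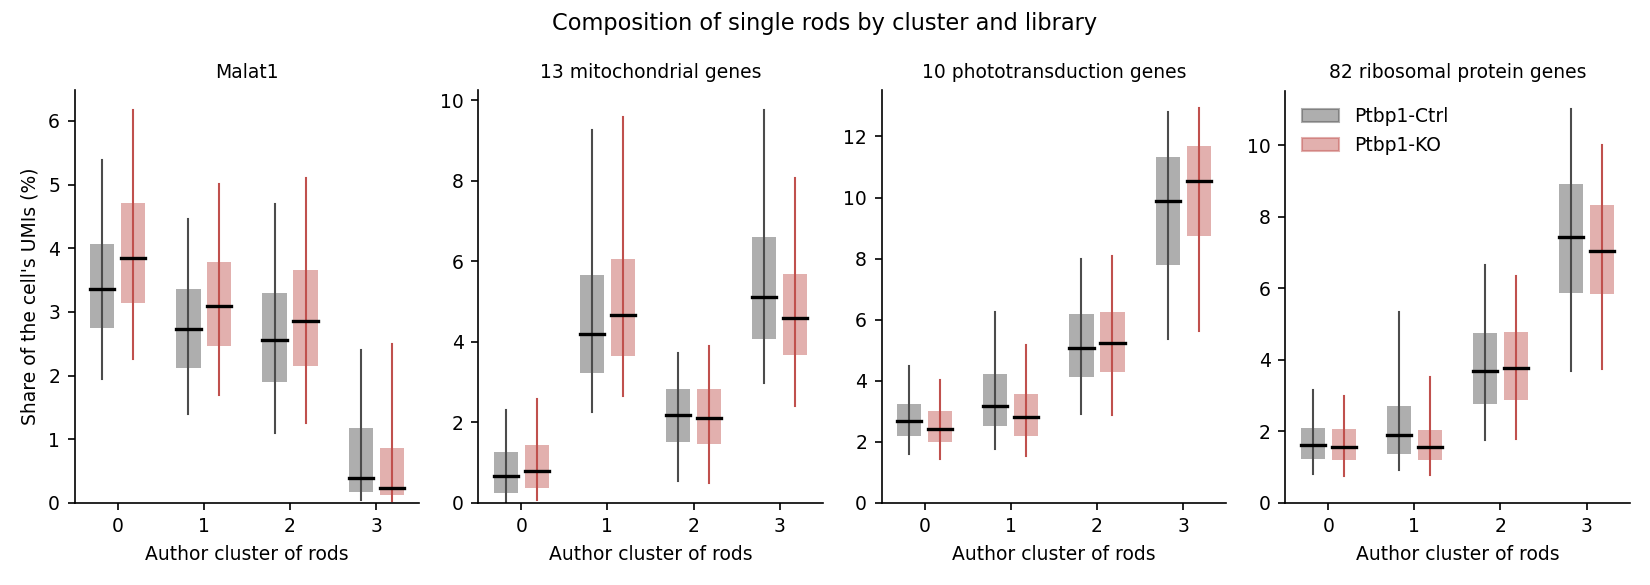
Share of each cell's UMIs (percent) from Malat1, the 13 mitochondrial genes, the 10 phototransduction genes and the ribosomal protein genes, by author cluster of rods and library. Bars run from the lower to the upper quartile over cells with the median as a black line, thin lines span the 5th to the 95th percentile, and cluster 3 has the lowest Malat1 medians (0.383% and 0.240%) of the 4 rod clusters and a phototransduction median of 9.90% in Ptbp1-Ctrl.

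Phototransduction genes were higher in cluster 3 in both libraries. Of the 10 list members, 8 in Ptbp1-Ctrl and 9 in Ptbp1-KO were higher and 0 lower, with medians of 0.63 and 0.64. Here and below, a gene counts as higher when its CPM ratio is up by at least 25% and as lower when it is down by at least 20%, the same distance on the log scale. Among all tested genes, 24.1% of 3647 in Ptbp1-Ctrl and 27.3% of 3714 in Ptbp1-KO were that far higher and 41.5% and 39.6% that far lower, with medians of −0.14 and −0.08. Gnat1, with the levels given above, gave log2 ratios of 1.04 and 1.07. The transducin partners were higher by less: Gnb1, the beta subunit, by 0.53 and 0.56, and Gngt1, the gamma subunit whose promoter is printed here, by 0.73 and 0.71. The transducin subunits were therefore uneven, with alpha highest.

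The phosphodiesterase subunits diverged. Pde6g, the inhibitory gamma subunit, went from 5359 to 8881 CPM in Ptbp1-Ctrl and from 4651 to 7983 in Ptbp1-KO. Pde6a, a catalytic subunit, gave log2 ratios of 0.34 and 0.46. Pde6b, its catalytic partner and one of the rod markers, stood at 1967 CPM in cluster 2 and 1995 in cluster 3 of Ptbp1-Ctrl and at 1977 and 2072 in Ptbp1-KO, log2 ratios of 0.02 (−0.03 to 0.07) and 0.07 (0.02 to 0.12). Of the channel subunits, Cnga1 gave 0.35 and 0.47 and Cngb1 gave 0.28 and 0.35. Slc24a1, the exchanger that removes calcium from the outer segment, gave 0.85 and 0.84.

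Shutoff and calcium feedback genes differed less. Of 11 genes, 4 were higher and 1 lower in Ptbp1-Ctrl, and 4 higher and 2 lower in Ptbp1-KO, with medians of 0.17 and 0.26. Rcvrn, a calcium sensor of photoreceptors, was highest with 0.61 and 0.64. Sag, rod arrestin, was at 11925 CPM in cluster 2 and 12123 in cluster 3 of Ptbp1-Ctrl and at 11658 and 12217 in Ptbp1-KO, log2 ratios of 0.02 and 0.07. Rgs9, which speeds the shutoff of transducin, gave 0.02 and −0.05, while its partner Gnb5 gave −0.30 and −0.40. The guanylate cyclases that refill cGMP went apart, since Gucy2e gave 0.40 and 0.54 and Gucy2f −0.51 and −0.36.

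Of the 11 outer segment genes, 5 were higher in each library and 0 lower, with medians of 0.27 and 0.29. Prph2 and Rom1, partner tetraspanins of the disc rim, gave 0.61 and 0.90 in Ptbp1-Ctrl and 0.72 and 0.95 in Ptbp1-KO. Cdhr1, a cadherin at the base of the outer segment, went from 502 to 1096 CPM in Ptbp1-Ctrl and from 493 to 1074 in Ptbp1-KO. Fscn2, an actin bundler of photoreceptors, gave 0.50 and 0.75. Impg1 and Impg2, proteoglycans of the matrix around photoreceptors, had opposite signs, with −0.30 and −0.32 for Impg1 and 0.27 and 0.29 for Impg2.

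Most photoreceptor transcription factors were not higher in cluster 3. Of 13, 1 was higher in each library and 6 in Ptbp1-Ctrl and 5 in Ptbp1-KO were lower. The medians of −0.19 and −0.16 turned to 0.16 and 0.09 under TMM scaling, which rescales by a trimmed mean of the log ratios. TMM moved all cluster 3 over cluster 2 ratios up, by 0.35 in Ptbp1-Ctrl and by 0.25 in Ptbp1-KO, and ratios that lay less than this below 0 turned positive. Among the list genes given, these were Gnb5, Impg1 and Hk2 in Ptbp1-Ctrl and Rgs9 in Ptbp1-KO. The synapse medians became 0.30 and 0.21. The medians of all tested genes, −0.14 and −0.08, also lay less than the shift below 0. So did the Ptbp1-Ctrl median of −0.34 given below for genes spanning 30 to 100 kb. The 1 higher member was Nrl, with 1.0 and 1.04, and its target Nr2e3 gave 0.30 and 0.29. Crx gave 0.11 and 0.24. Otx2, at 291 and 203 CPM in Ptbp1-Ctrl and 346 and 233 in Ptbp1-KO, gave −0.52 and −0.57. Prdm1, which holds back bipolar fate in photoreceptor precursors, gave −1.24 and −1.40.

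Synaptic and ciliary genes were spread or lower. Of 15 tested rod synapse genes, 4 were higher in each library and 6 in Ptbp1-Ctrl and 4 in Ptbp1-KO lower, with medians of −0.05 and −0.04. Slc17a7, which loads glutamate into vesicles, went from 812 to 1530 CPM and from 826 to 1682. Rims2, a scaffold of the release site, went from 2616 to 1046 CPM in Ptbp1-Ctrl and from 2422 to 943 in Ptbp1-KO. Cacnb2, a calcium channel subunit of the terminal, gave −1.49 and −1.67 and the scaffold Pclo −1.08 and −1.17. Of 9 tested ciliary transport genes of 14, 0 were higher and 7 in Ptbp1-Ctrl and 5 in Ptbp1-KO lower, with medians of −0.49 and −0.45. Among them, Rpgr and its binding partner Rpgrip1 at the connecting cilium gave −1.49 and −1.20 in Ptbp1-Ctrl and −1.72 and −1.27 in Ptbp1-KO, whereas Arl3, a small GTPase that releases lipidated cargo, gave 0.30 and 0.27.

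Energy and translation genes were mostly higher in cluster 3. All 13 genes of the mitochondrial genome were higher in cluster 3 of each library, with medians of 1.2 and 1.03 and a lowest value of 0.52 for mt-Nd6 in Ptbp1-Ctrl. Of 20 nuclear genes of oxidative phosphorylation, 16 in Ptbp1-Ctrl and 17 in Ptbp1-KO were higher and 2 and 0 lower, with medians of 0.57 and 0.60. Of 15 tested glycolysis genes, 10 and 11 were higher and 0 and 1 lower, with medians of 0.42 and 0.51. Pkm and Gapdh, enzymes of its later steps, gave 0.88 and 0.77 in Ptbp1-Ctrl and 0.92 and 0.75 in Ptbp1-KO. Hk2, a hexokinase abundant in photoreceptors, gave −0.12 and −0.59. Of 79 tested cytosolic ribosomal protein genes, 78 were higher in each library, with medians of 0.88 and 0.80.

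Smaller lists gave few tested genes. Of 18 dissociation stress genes, 6 were tested in Ptbp1-Ctrl with 3 higher and 1 lower, and 7 in Ptbp1-KO with 4 higher and 0 lower. The heat shock genes Hspa8 and Hsp90aa1 gave 0.62 and 0.52 in Ptbp1-Ctrl and 0.76 and 0.54 in Ptbp1-KO, while Fos, an early response gene below the CPM minimum, stood at 15.7 and 3.42 CPM in clusters 2 and 3 of Ptbp1-Ctrl. Of the 2 tested photoreceptor stress genes, 0 in Ptbp1-Ctrl and 1 in Ptbp1-KO were higher, Ddit3 with 0.56. Of the circadian clock genes, 2 of 4 and 2 of 5 were lower and 0 higher, among them the clock activator Arntl with −1.12 and −1.04.

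**Figure D3:**
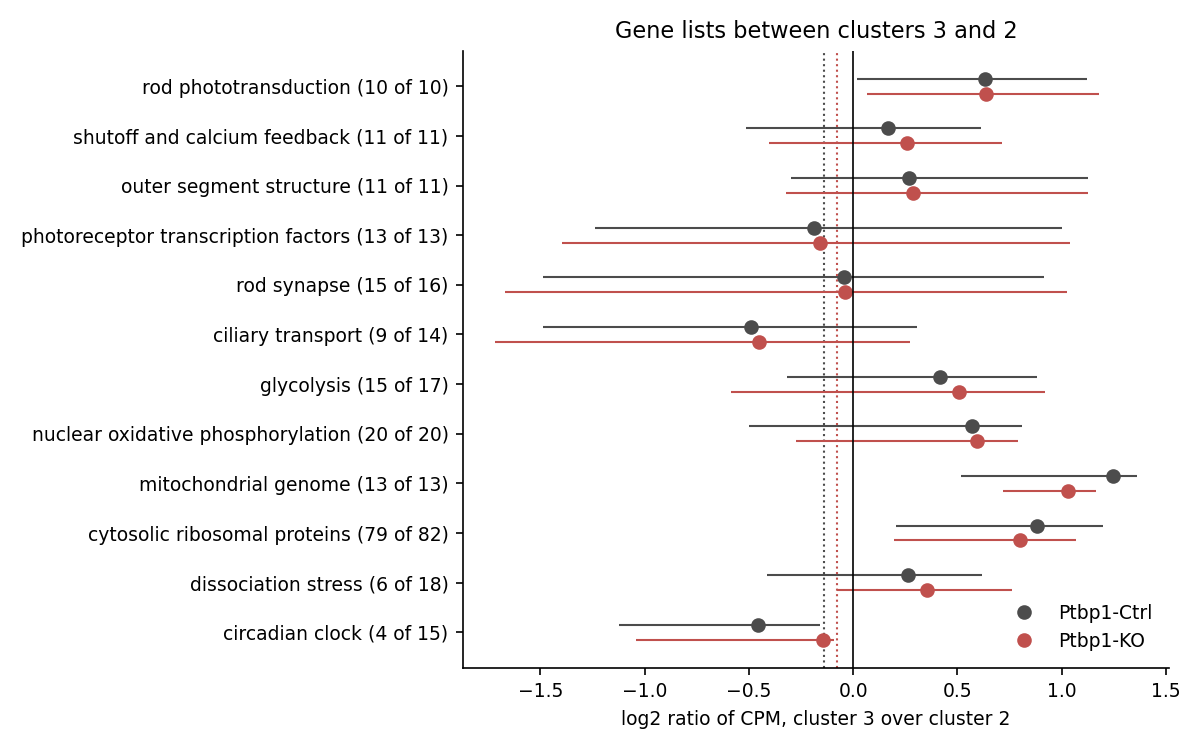
Log2 ratio of cluster 3 over cluster 2 by gene list and library, with the number of genes tested in Ptbp1-Ctrl of those on the list. Points are list medians, horizontal lines run from the lowest to the highest gene, and dotted lines mark the medians of all tested genes (−0.14 and −0.08). The mitochondrial genome has medians of 1.2 and 1.03 and the ciliary transport list −0.49 and −0.45.

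By size, 45 genes (1.23%) were at least 2-fold higher and 451 (12.4%) at least 2-fold lower in cluster 3 of Ptbp1-Ctrl, and 33 (0.889%) and 536 (14.4%) in Ptbp1-KO. Under TMM these splits became 292 and 133, and 207 and 282. The highest of all by the mean of both libraries were Nomo1, a membrane protein of the endoplasmic reticulum, with 1.38, and Rbp3, which carries retinoids between photoreceptors and pigment epithelium. Rbp3 stood at 1206 CPM in cluster 2 and 2926 in cluster 3 of Ptbp1-Ctrl and at 1206 and 2946 in Ptbp1-KO. Next were Eef2, the translation elongation factor, with 1.26, then mt-Co3, mt-Nd3, mt-Nd4, mt-Co2, mt-Nd1 and mt-Co1 with between 1.2 and 1.15. The lowest were the nuclear RNA Kcnq1ot1 with −2.08 and Dpp10, an auxiliary subunit of potassium channels, with −2.05, followed by 2310030A07Rik, 4933413L06Rik, Slc22a29, Malat1, Galntl6, Gm35188, Gm48321 and Gm49417 with between −1.99 and −1.87. Of these 10 genes, 5 are annotated as antisense to another gene, and whether any of their reads come from the partner was not tested. Long noncoding genes, the antisense ones among them, were 104 of 3624 tested genes matched to the annotation in Ptbp1-Ctrl and 97 of 3689 in Ptbp1-KO. Of these long noncoding genes, 45.2% and 42.3% were at least 2-fold lower. Both libraries gave a like pattern: over 3523 genes tested in both, Pearson r across genes was 0.96, with 92.3% of the same sign, a description over genes that shaped the shared clustering.

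The ratio followed the genomic span of the gene. For protein-coding genes spanning under 10 kb the median log2 ratio of cluster 3 over cluster 2 was 0.43 in Ptbp1-Ctrl (725 genes) and 0.48 in Ptbp1-KO. For spans of 10 to 30 kb it was 0.16 and 0.19, for 30 to 100 kb −0.34 and −0.30, for 100 to 300 kb −0.77 and −0.82, and above 300 kb −1.2 (148 genes) and −1.35. Rims2, Cacnb2 and Dpp10 span 486, 385 and 724 kb, whereas Gnat1 spans 5.24 kb. Clusters 2 and 3 over clusters 0 and 1 gave the same order, from 1.01 to −1.08 in Ptbp1-Ctrl and from 1.07 to −1.03 in Ptbp1-KO. Whether intronic reads were counted is not given in the sources used here, and the part of intronic reads in this order was not tested.

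**Figure D4:**
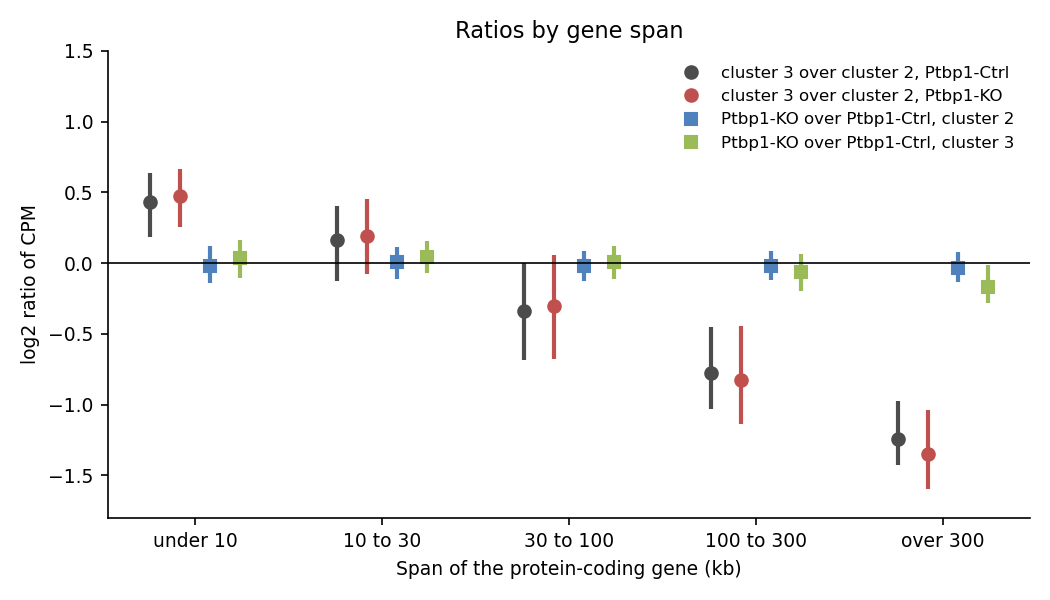
Median log2 ratio (points, with lines from the lower to the upper quartile of genes) by the genomic span of protein-coding genes. Cluster 3 over cluster 2 goes from 0.43 under 10 kb to −1.2 above 300 kb in Ptbp1-Ctrl, while the Ptbp1-KO over Ptbp1-Ctrl medians lie between −0.03 and 0.01 in cluster 2 and between −0.17 and 0.04 in cluster 3.

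Set against the rods of clusters 0 and 1 pooled, clusters 2 and 3 held more of the light response and of the machinery of energy and translation. In Ptbp1-Ctrl 8 of 10 phototransduction genes were higher and in Ptbp1-KO 9, with 0 lower and medians of 1.02 and 1.07, where 30.6% of 3805 and 31.7% of 3876 tested genes were that far higher and 45.4% and 44.3% lower. The medians of all genes were −0.23 and −0.20. All 79 tested ribosomal genes and all 13 mitochondrial genes were higher in each library, with medians of 1.57 and 1.57 for the former and 1.14 and 0.93 for the latter. For the mitochondrial genes this did not hold against cluster 1 alone. They summed to 38108.5 and 30974 CPM in clusters 2 and 3 of Ptbp1-Ctrl and Ptbp1-KO. In cluster 0 they summed to 8787 and 10102 CPM, but in cluster 1 to 47982 and 51630. Of the 20 oxidative phosphorylation genes 18 were higher in each library, with medians of 1.22 and 1.22, and of 15 glycolysis genes 12, with 0.96 and 0.94. The shutoff list had 7 higher and 1 lower of 11 in each library, with medians of 0.47 and 0.61.

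Transcription factors and ciliary genes again did not follow. The medians of the factors, −0.12 and −0.21, turned to 0.29 and 0.17 under TMM, those of the ciliary genes, −0.41 and −0.35, to 0.00 and 0.03, and those of the synapse genes, −0.03 and −0.17, to 0.38 and 0.21. TMM moved these ratios up by 0.41 in Ptbp1-Ctrl and 0.38 in Ptbp1-KO, and it changed the number of genes at least 2-fold higher and lower from 476 (12.5%) and 375 (9.86%) to 914 and 42 in Ptbp1-Ctrl and from 508 (13.1%) and 315 (8.13%) to 914 and 47 in Ptbp1-KO. Rbp3 led the higher genes with 2.03, from 554 to 2061 CPM in Ptbp1-Ctrl and from 422 to 1892 in Ptbp1-KO. After it came Rplp1 with 1.88, Gnat1 with 1.86 and Reep6, a rod protein of the endoplasmic reticulum, with 1.85, then Cops9, Tpt1, Eef2, Rps25, Smim40 and Rpl26. The lowest were 4930419G24Rik with −1.98 and Lrrc4, a synaptic adhesion protein, with −1.93, followed by Gm16168, 2310030A07Rik, Gm26827, Gm48678, Gm37459, Gm48321, Gm47167 and Gm35188. Of the 10 lowest genes, 8 are annotated as antisense. Long noncoding genes, the antisense ones among them, were 129 of 3782 tested genes matched to the annotation in Ptbp1-Ctrl and 141 of 3853 in Ptbp1-KO. Of these long noncoding genes, 44.2% and 39.0% were at least 2-fold lower.

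Outside rods the contrast was larger for the photoreceptor lists named next. Against all non-rods, 10 of 10 phototransduction genes, 11 of 11 shutoff genes and 11 of 11 outer segment genes were at least 2-fold higher in each library, with medians of 2.79, 2.25 and 2.24 in Ptbp1-Ctrl and 2.98, 2.52 and 2.52 in Ptbp1-KO. Glycolysis genes were not higher as a group, with medians of 0.04 and −0.08 over 16 tested genes. For ribosomal and mitochondrial transcripts the contrast was smaller than with clusters 0 and 1. In Ptbp1-Ctrl, ribosomal ones took 5.60% of summed UMIs in clusters 2 and 3, 3.76% in non-rods and 1.90% in clusters 0 and 1. Mitochondrial ones took 3.81%, 3.22% and 1.76% in the same order. Phototransduction transcripts took a median of 5.08% and 9.90% of UMIs in cells of clusters 2 and 3 of Ptbp1-Ctrl, 1.10% in cones and 0.594% in non-rods together.

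Ptbp1-KO was then compared with Ptbp1-Ctrl within each cluster, to ask whether rods of either cluster differed between the libraries. The differences were small beside those between clusters. Of 3886 tested genes in cluster 2, 5.25% were higher in Ptbp1-KO and 3.42% lower, and the median ratio was −0.01. Of 3357 in cluster 3, 6.02% were higher and 5.0% lower, and the median was 0.01. Over both clusters pooled it was 175 genes (4.72%) higher and 82 (2.21%) lower of 3708, a split that TMM turned to 92 and 205 by a shift of −0.08. At 2-fold it was 5 (0.135%) and 6 (0.162%). The pooled values also carry the smaller share of cluster 3 in Ptbp1-KO, so each cluster is given by itself below. Of 3127 genes tested in both clusters, 68 were higher in both and 33 lower in both.

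Of the 10 phototransduction genes, 0 were higher or lower in cluster 2 and in cluster 3, with medians of −0.01 and 0.04. The pooled median was −0.05, below that of either cluster, with cluster 3 on the other side of 0. TMM moved the ratios by −0.01 in cluster 2 and −0.06 in cluster 3, where the median became −0.02. In clusters 0 and 1, where 4.61% of 3838 tested genes were that far higher and 3.36% lower, 1 of the 10 was lower and the median was −0.10. Gnat1 gave 0.24, 0.27 and 0.01 in clusters 2, 3 and 0 with 1, and Pde6g gave −0.20, −0.15 and −0.40. The shutoff list had 0 of 11 past these bounds in either cluster, with medians of −0.09 and −0.00, and Guca1a, which activates the guanylate cyclases when calcium falls, gave −0.18 and −0.10.

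Outer segment genes gave 2 of 11 higher and 0 lower in each cluster, with medians of 0.04 and 0.08. Fscn2 went from 234 CPM in Ptbp1-Ctrl to 306 in Ptbp1-KO in cluster 2 and from 331 to 514 in cluster 3, log2 ratios of 0.39 (0.26 to 0.52) and 0.64 (0.52 to 0.75). Impg2 went from 605 to 769 and from 730 to 939 CPM, log2 ratios of 0.35 (0.26 to 0.43) and 0.36 (0.28 to 0.45). Both genes were higher in Ptbp1-KO in each cluster, and in clusters 0 and 1 they gave 0.24 and 0.23. Tulp1, a carrier of outer segment proteins, gave 0.18, 0.28 and 0.10.

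Transcription factors lay within these bounds in cluster 2, with 0 of 13 past them, and in cluster 3 with 0 higher and 1 lower of 12. Nrl gave −0.14 and −0.11 in clusters 2 and 3 and −0.23 in clusters 0 and 1. Nr2e3 gave −0.24, −0.25 and −0.36. Otx2 gave 0.25 (0.12 to 0.37), 0.20 (0.04 to 0.37) and 0.42, and Samd7, a repressor that silences non-rod genes, gave 0.25, 0.13 and 0.33. Thus Otx2 lay above 0 and Nrl and Nr2e3 below 0 in all these groups, within the bounds except for Otx2 and Nr2e3 in clusters 0 and 1. The study described the opposite for rods, with Nrl and Nr2e3 modestly increased and Otx2 reduced, by a rank sum test over cells. The 7 genes it described as increased summed to 21857 CPM in Ptbp1-Ctrl and 20127 in Ptbp1-KO in cluster 2. In cluster 3 they summed to 32456.5 and 31140.

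**Figure D5:**
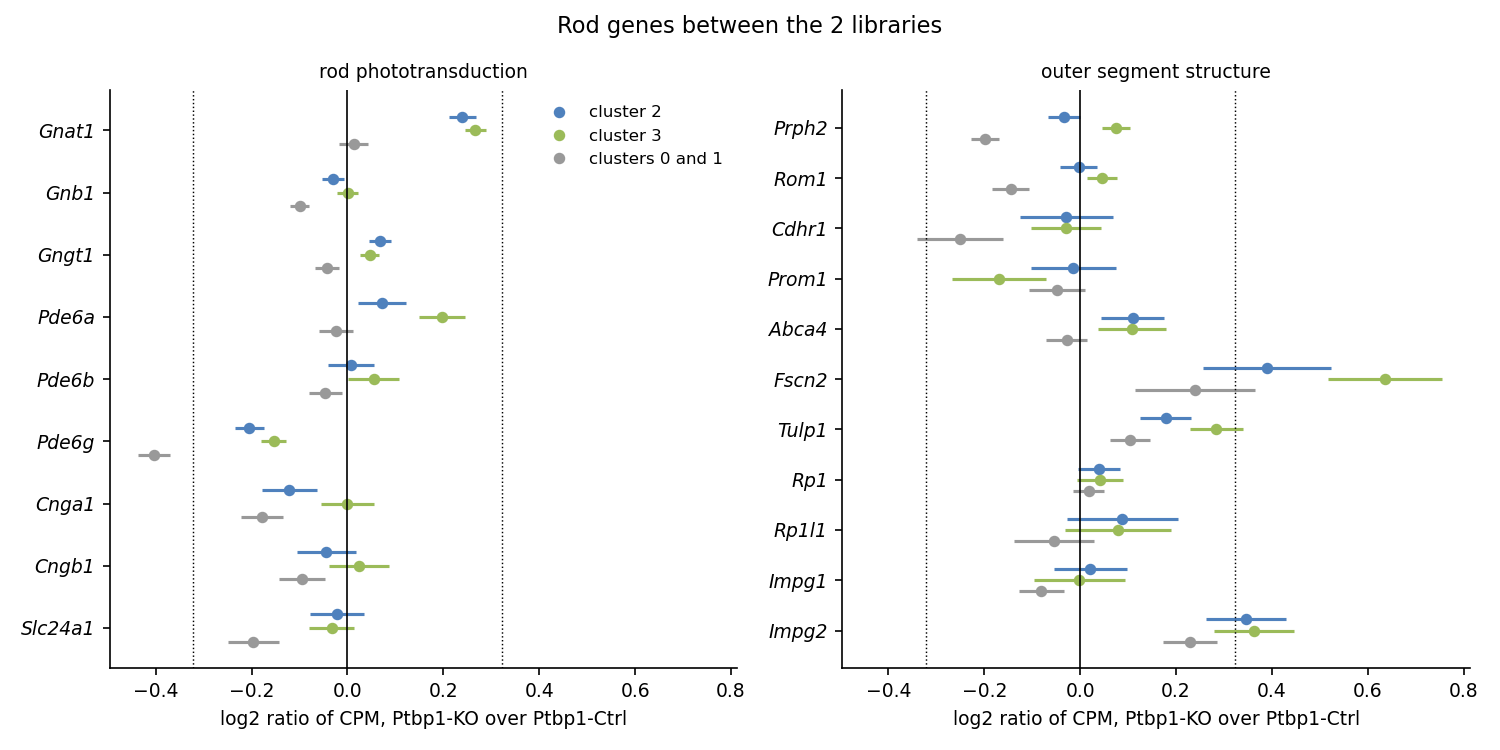
Log2 ratio of Ptbp1-KO over Ptbp1-Ctrl for genes of the phototransduction and outer segment lists in cluster 2, cluster 3 and clusters 0 and 1, with 95% intervals that cover counting error only and dotted lines at the bounds of 25% up and 20% down. Fscn2 and Impg2 lie above 0 in each group, whereas Pde6g lies below 0 in each, at −0.20, −0.15 and −0.40.

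Synapse genes had 0 of 15 past the bounds in cluster 2 and 1 higher and 1 lower in cluster 3. Those in cluster 3 were Cacna1f, the calcium channel pore of the terminal, with 0.42 (0.22 to 0.62), and Cacnb2 with −0.45 (−0.54 to −0.35), which gave −0.27 in cluster 2. Cplx4, a complexin of photoreceptor terminals, gave 0.26, 0.27 and 0.21 in clusters 2, 3 and 0 with 1. Of the ciliary transport genes 0 of 9 in cluster 2 and 0 of 8 in cluster 3 passed in either direction.

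Glycolysis was the list furthest below 0. Of 15 tested genes, 0 were higher and 4 lower in cluster 2, and 0 and 2 in cluster 3, with medians of −0.21 and −0.17, and clusters 0 and 1 gave −0.25. Aldoa, the aldolase of glycolysis, went from 1317 to 1057 CPM in cluster 2 and from 2051 to 1732 in cluster 3. Pgk1 gave −0.39 and −0.39 and Hk2 −0.10 and −0.57. Gapdh was near level with −0.01 and −0.03. The mitochondrial genome had 3 higher and 0 lower of 13 in cluster 2 and 0 and 4 in cluster 3, with medians of −0.06 in both, mt-Atp6 giving −0.23 and −0.45 and mt-Atp8 0.48 and 0.29. Oxidative phosphorylation genes had 0 higher and 3 lower of 20 in cluster 2 and 0 and 1 in cluster 3, with medians of 0.02 and 0.06. Of 79 ribosomal genes, 11 were higher and 2 lower in cluster 2 and 5 and 7 in cluster 3, with medians of −0.08 and −0.14. Dissociation stress genes had 0 of 6 and 0 of 7 past the bounds. Photoreceptor stress genes had 0 higher and 1 lower of 2 in cluster 2, Ddit3 with −0.43, and 0 of 2 in cluster 3. Of the clock genes, 1 of 5 and 1 of 4 were lower, namely Bhlhe41, a transcriptional repressor of the clock, with −0.49 and −0.44.

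Among genes named for the size of the difference, lowest in Ptbp1-KO was Gm19667, an RNA annotated as antisense, which went from 251 to 16.6 CPM in cluster 2 and from 84.0 to 5.64 in cluster 3. Cerkl, a ceramide kinase-like gene tied to retinal degeneration in humans, went from 306 to 140 and from 171 to 59.3 CPM. Cox7b, a subunit of cytochrome c oxidase, went from 521 to 254 and from 704 to 345 CPM, and gave −1.20 in clusters 0 and 1. The others were Gm47283 on the Y chromosome with −2.14 pooled, Gm10260 with −1.30, Rpl29 with −1.08, the class I histocompatibility gene H2-D1 with −0.99, F630040K05Rik with −0.96, Rnf121 with −0.88 and Lrrc2 with −0.78. Ribosomal protein genes such as Rpl29 are known to have many pseudogenes, and how reads shared between copies were counted is not given in the sources used here.

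Among the higher genes, Poc1a, a centriole protein, went from 11.4 to 118 CPM in cluster 2 and from 6.53 to 153 in cluster 3. Abhd14b, a hydrolase, went from 30.7 to 210 and from 9.02 to 59.3 CPM. Ip6k2, an inositol hexakisphosphate kinase, went from 326 to 578 and from 175 to 400 CPM. Abcd4, a transporter, gave 1.04 pooled, Uckl1os 0.97, Mrpl9 0.91, A930003O13Rik 0.89, Ppargc1b 0.87 and Lrp4 0.85. Hbb-bs, a beta globin gene of red blood cells, gave 8.35 (6.80 to 10.63), from 3 UMIs to 953, but 569 of the 953 UMIs came from 1 cell and 11 cells held all of them. The sign was the same in bipolar cells for 20 and in Müller glia for 19 of the 20 genes named for their size. Cox7b gave −1.21 in bipolar cells and −1.37 in Müller glia, Gm19667 −2.79 and −3.35, and Poc1a 2.18 and 2.17. Abhd14b was the exception, with 1.34 in bipolar cells but −0.33 (−0.58 to −0.08) in Müller glia.

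A few more genes, below the mean CPM minimum of 50 with both clusters pooled, were chosen after their values were seen. Gm11342 went from 1 to 351 UMIs in cluster 2, a log2 ratio of 8.23 (5.74 to 13.54), and from 2 to 73 in cluster 3, 5.56 (3.66 to 8.64). Slc17a1, a phosphate transporter gene, went from 7 to 404 and from 3 to 84 UMIs, log2 ratios of 5.63 and 5.18. Enox1 gave 1.73 and 1.15, and Magt1 gave −1.28 and −1.15.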

How the data were processed

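Retinas of 1 Ptbp1-Ctrl and 1 Ptbp1-KO mouse were analysed, grouped by the genotype in the labels. The authors aligned reads to mm10 with Cell Ranger 7.0.1, filtered cells in Seurat 4 and clustered both libraries together on principal components of variable genes, with mitochondrial content regressed out. The deposited table held raw UMI counts for 25778 genes in 30943 cells. The deposited cell table gave UMI and gene counts, the percent of UMIs from mitochondrial genes, cluster, cell type and sample. The gene annotation and the use of introns and strand in counting are not given in the sources used here. A further 2 columns of per-cell values were not used.

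UMIs were summed per library and cell group and scaled to CPM. A gene's ratio was computed where the 2 sides held 50 or more UMIs and averaged 50 or more CPM, and ratios at least 25% up, 20% down or 2-fold either way were counted. No p-value was computed. CPM have exact Poisson intervals, ratios exact conditional binomial ones and shares exact Clopper-Pearson ones, and all cover counting error only. Members, gene lists and comparisons were chosen with earlier results of these data known. The named genes were Ptbp1 and Ptbp2, the list members, Xist and Y-linked genes as a sex check, and in each comparison the 10 highest and 10 lowest log2 ratios with the same direction in both clusters (Ptbp1-KO over Ptbp1-Ctrl) or both libraries (between clusters, ranked by the mean of both libraries' ratios). A single list gene is not reported here by itself. Cells were thinned to 1000 UMIs for shares of cells with a UMI. Gene coordinates, spans and types came from the GENCODE annotation of GRCm38 (mm10) supplied as reference, and promoters from RefSeq (GRCm38.p6). No doublet caller was run, and the methods name no doublet removal. The alternatives were TMM scaling, totals without mitochondrial genes, other CPM minimums, thinning, depth bands, weighting of clusters and left-out cells. The ratios and intervals were tested on simulated data. Software was Python 3.11.15, NumPy 2.4.6, SciPy 1.17.1, pandas 2.3.3, matplotlib 3.10.9, R 4.3.3 and edgeR 4.0.16, the last for TMM factors only.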

Additional observations from a re-analysis of the deposited data

Results flagged for a closer look

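A few genes had ratios of opposite sign in groups set side by side, each with an interval that left out 0, and in every case the difference was not tested. Between Ptbp1-KO and Ptbp1-Ctrl, Malat1 gave 0.17 in cluster 2 and −0.08 in cluster 3, Prph2 −0.03 and 0.08, mt-Co1 0.17 and −0.06, and mt-Nd1 0.21 and −0.06. Between clusters 2 and 3 and clusters 0 and 1, Hbb-bs gave −7.93 in Ptbp1-Ctrl and 6.28 in Ptbp1-KO, with most UMIs in few cells, and Mef2d, a photoreceptor transcription factor, gave −0.12 and 0.11.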

How the results depend on the processing

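No paired analysis was possible because each genotype had 1 library, with no replicate numbers to share. Depth bands of 1000 to 2000 UMIs and 2 ways of leaving out cells were added after seeing the data. Of the genes named for their size, 0 changed sign in the comparison they were named for under the alternatives run on them. In other comparisons some did under TMM, such as Mrpl9 for cluster 3 over cluster 2 in Ptbp1-Ctrl. List medians changed sign in 27 cases. Under TMM, 17 list or size-named genes in Ptbp1-Ctrl and 18 in Ptbp1-KO changed sign for cluster 3 over cluster 2, 22 and 22 for clusters 2 and 3 over 0 and 1, and 3 and 26 for Ptbp1-KO over Ptbp1-Ctrl in clusters 2 and 3. Beside those below, TMM turned the synapse medians of cluster 3 over cluster 2 to 0.30 and 0.21 and the clock median in Ptbp1-KO to 0.11, the synapse median in Ptbp1-Ctrl and the clock median in Ptbp1-KO of clusters 2 and 3 over 0 and 1 to 0.38 and 0.22, and the pooled outer segment median of Ptbp1-KO over Ptbp1-Ctrl to −0.04.

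In Ptbp1-KO over Ptbp1-Ctrl (pooled), the phototransduction median of −0.05 became −0.13 under TMM, −0.0059 without cells of 3 or more UMIs of other types' markers, −0.0071 in cluster 2, 0.036 in cluster 3 and 0.013 with clusters weighted equally, and the rod marker median of −0.10 became 0.00017 in cluster 3. Genes 2-fold higher, 5, became 3 under TMM, 8 at 1000 to 2000 UMIs, 23, 1 and 135 with a CPM minimum of 20, of 200 and none, and 10 and 3 in clusters 2 and 3. Genes 2-fold lower, 6, became 12, 3 and 47 with those minimums. At the bounds of 25% up and 20% down, 175 higher became 92 under TMM and 503, 32 and 1574 with those minimums. The 82 lower became 205 under TMM, 143 thinned, 137 without marker-bearing cells, 150 at 1000 to 2000 UMIs, 182, 33 and 598 with those minimums, and 133 and 168 in clusters 2 and 3.

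For cluster 3 over cluster 2, genes 2-fold higher in Ptbp1-Ctrl, 45, became 292 under TMM and 68 with no minimum, and the 451 lower became 133 under TMM and 775, 117 and 1205 with those minimums. In Ptbp1-KO, 33 higher became 207 under TMM, 65 thinned, 56 without marker-bearing cells, 85 at 1000 to 2000 UMIs and 61 with no minimum, and 536 lower became 282 under TMM and 938, 123 and 1477. The phototransduction medians became 0.98 and 0.89 under TMM and 0.68 and 0.67 without mitochondrial genes, and in Ptbp1-KO 0.67 as a mean over cells, 0.67 without marker-bearing cells and 0.68 at 1000 to 2000 UMIs. The factor medians became 0.16 and 0.090 under TMM, and stress in Ptbp1-Ctrl −0.18 with no minimum.

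For clusters 2 and 3 over 0 and 1, genes 2-fold higher in Ptbp1-Ctrl, 476, became 914 under TMM and 207 at a minimum of 200, and 375 lower became 42 under TMM and 596, 144 and 1282. In Ptbp1-KO, 508 higher became 914 under TMM, 206 at a minimum of 200 and 788 with none, and 315 lower became 47 under TMM, 619 without marker-bearing cells, and 539, 114 and 1495. Phototransduction medians became 1.43 and 1.45 under TMM, 1.06 and 1.19 without marker-bearing cells, 0.88 and 1.02 at 1000 to 2000 UMIs, and 0.95 thinned in Ptbp1-Ctrl. TMM also gave 0.29 and 0.17 for factors, 0.0049 and 0.032 for cilia, 0.083 for clock genes in Ptbp1-Ctrl and 0.21 for synapse genes in Ptbp1-KO.

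Ptbp1 in cluster 2 gave −2.85 at 1000 to 2000 UMIs. As shares of all cells, cluster 2 was 12.7% and 11.9% and cluster 3 11.2% and 6.69%. At 1000 or more UMIs the shares of rods were 29.9% and 27.0%, and 28.2% and 15.7%. At 1000 to 2000 UMIs they were 28.7% in cluster 2 of Ptbp1-Ctrl and 25.03% and 11.7% in cluster 3. In that range the cluster 2 share of Ptbp1-KO stayed within its interval of 17.8% to 19.4%, below that of Ptbp1-Ctrl. Without marker-bearing cells the shares of rods were 16.5% in cluster 2 of Ptbp1-KO, or 17.2% with Prkca left out, and 21.7% and 13.5% in cluster 3. The causes of these moves were not tested beyond the alternatives' own construction. Depth limits low genes: 3 or fewer Ptbp1 UMIs stood in each Ptbp1-KO cluster.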

Other observations

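Several of the genes that differed most between the libraries lay close together, a pattern noticed after the values were seen and not tested. On chromosome 9 of mm10 between 105 and 111 Mb, 11 of 39 tested genes (28.2%) were at least 25% higher or 20% lower in Ptbp1-KO than in Ptbp1-Ctrl in clusters 2 and 3, against 9 of 196 (4.59%) on the rest of the chromosome and 234 of 3449 (6.78%) on the other chromosomes. The window was drawn from Gm19667 to Lrrc2, both named for their size. Its share and its number of named genes are therefore raised by how it was drawn. Of the 20 genes named for their size, 6 lay in that window, namely Gm19667, Poc1a, Rpl29, Abhd14b, Ip6k2 and Lrrc2, with both signs present. Gnat1 lies in the same window, from 107674474 to 107679712. Ptbp1 itself is on chromosome 10.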
